A study of Mus musculus with 30 samples.

Results

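Collagens and other genes of the tumor stroma and extracellular matrix were followed in 30 orthotopic E0771 mammary tumors, 6 from each of 5 groups of mice. Membership was a list of 45 genes grouped by what their proteins do and chosen with earlier results of these data known. Of these, 41 were measured among 19505 genes in all, each by 1 probe set. Col12a1, Fbn1, Loxl2 and Pdgfra were not analysed here. The 41 comprised 8 fibrillar collagens, 6 fibril-associated, beaded-filament or network collagens, 6 basement membrane genes, 12 glycoproteins and proteoglycans, 2 crosslinking enzymes, 4 genes of stromal cells and 3 genes of matrix remodelling.

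E0771 is a mouse mammary carcinoma line, and every tumor grew from cells injected into the 4th mammary fat pad of a female C57BL/6NCrl mouse, 25 weeks after the young adult animals were first assigned to a diet. CON-LFD mice ate a low-fat control diet throughout, were never obese and had a sham operation. DIO-HFD mice became obese on a diet with 60% fat, had a sham operation and stayed on that diet. The remaining groups were made obese in the same way and then lost weight. In DIO-VSG mice this followed vertical sleeve gastrectomy, an operation that leaves the stomach as a narrow tube, with the low-fat diet given afterwards. DIO-CCR mice had a sham operation and then chronic calorie restriction, and DIO-ICR mice a sham operation and then intermittent restriction, in which days of stronger restriction alternate with spells of milder restriction. Each tumor came from a mouse with a number of its own. The model rests on 1 tumor cell line, and whole tumors were extracted, so RNA of carcinoma cells, host stroma and bordering fat pad was measured together. In such bulk RNA, fewer cells of a type and less RNA per cell cannot be told apart.

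The extracellular matrix is the protein scaffold between cells. Fibrillar collagens are secreted as triple helices of several chains, trimmed by proteases and crosslinked by lysyl oxidases into stiff fibrils, chiefly by fibroblasts. Type VI collagen forms beaded filaments beside these fibrils, and type IV collagen and laminins form the sheets on which epithelium and vessels rest. Glycoproteins such as tenascin C and the thrombospondins are deposited in healing wounds and tumors and tune how cells adhere to the scaffold.

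Of the 4 genes that passed a test below, Tnc, Col24a1 and Col18a1 had promoter entries in RefSeq (GRCm38.p6), which are shown first as the regions where transcription of these genes begins. Each line gives the 250 bases before the annotated start, 5′ to 3′ on the gene's strand, with matches to 4 motifs in capitals. The motifs were the TATA box TATAAA, the CCAAT box, the GC box GGGCGG and the AP-1 site TGANTCA, each on both strands, so that CCGCCC and ATTGG also count and no 2 matches overlapped.
Tnc: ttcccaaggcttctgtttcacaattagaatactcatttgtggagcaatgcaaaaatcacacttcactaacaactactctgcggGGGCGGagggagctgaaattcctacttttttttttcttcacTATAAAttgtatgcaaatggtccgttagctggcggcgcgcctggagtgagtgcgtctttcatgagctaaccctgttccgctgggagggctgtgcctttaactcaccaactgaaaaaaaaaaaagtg
Col24a1: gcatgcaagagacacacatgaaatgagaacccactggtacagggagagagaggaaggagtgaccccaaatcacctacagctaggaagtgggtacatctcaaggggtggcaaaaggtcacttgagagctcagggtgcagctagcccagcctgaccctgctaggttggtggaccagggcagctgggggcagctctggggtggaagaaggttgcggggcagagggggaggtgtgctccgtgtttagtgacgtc
Col18a1: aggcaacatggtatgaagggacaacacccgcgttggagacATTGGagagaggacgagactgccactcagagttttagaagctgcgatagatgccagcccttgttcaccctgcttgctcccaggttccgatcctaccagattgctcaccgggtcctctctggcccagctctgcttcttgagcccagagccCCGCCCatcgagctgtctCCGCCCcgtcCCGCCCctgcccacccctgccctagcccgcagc
The Tnc window lies on the minus strand at chr4:64047016-64047265, within the span of the long noncoding RNA gene 8030451A03Rik, and held a GC box 167 bases and a TATA box 126 bases before the start. The Col18a1 window, on the minus strand at chr10:77166531-77166780, held a CCAAT box 210 bases and GC boxes 61, 43 and 33 bases before the start. The Col24a1 window on the plus strand, chr3:145292222-145292471, held none of the 4 motifs. GC content was 44.8% for Tnc, 58% for Col24a1 and 62% for Col18a1. Tnc and Col18a1 have 2 annotated starts each, and the outermost was used. Of the 41 genes, 26 had an entry, each counted at its outermost start only. GGGCGG occurred in 16 of them (61.5%) against 32.7% of 32851 windows of the same length, which took every start of all genes. The shares are thus over unlike sets of starts. For CCAAT the shares were 46.2% and 33.8%, for TATAAA 11.5% and 12.4%, and for TGANTCA 3.85% and 6.75%. A match is a run of letters and says nothing of whether a factor binds there.

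Expression was read as log2 levels on Clariom S arrays, on a scale that ran from 1.48 to 18.57 with array medians between 6.41 and 6.79, so a difference of 1 is a change of a factor of 2. Group means were compared with limma over all arrays and all genes, an adjusted p under 0.05 was called a pass, and a value after ± is the standard error of its difference. Genes of neighbouring tissue stood out in some tumors. Lymph node genes averaged 5.78 above the median tumor in DIO-VSG 1, 1.49 in DIO-VSG 5 and 2.84 in DIO-HFD 5, and those of skeletal muscle 6.78 in DIO-VSG 4, 3.15 in CON-LFD 5, 2.49 in DIO-VSG 3 and 1.16 in DIO-CCR 3, where the number after a group only names a tumor. Calls were therefore also made without the tumors with lymph node genes and, in a separate fit, without those with muscle genes. No fit left out both sets at once. Among epithelial markers of the carcinoma cells, group medians were 8.72 to 11.16 for Krt8, but 4.02 to 4.95 for Krt18 and 4.45 to 5.43 for Epcam, below the median of every array.

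Few of the 41 genes differed between groups. In the F-test over all 5 groups, Tnc, Col24a1, Col18a1 and Spon1 passed, 4 of 41 (9.76%) against 1.64% of all genes. DIO-ICR tumors were lowest in mean level for the first 3 of these and CON-LFD tumors highest. Spon1 was highest in DIO-VSG tumors. The list was chosen with earlier results of these data known, so the share that passed was not tested against all genes.

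Counted by comparison, the calls lay mainly between the calorie-restricted groups and lean controls. In DIO-ICR against CON-LFD tumors 3 of 41 genes passed (7.32%), all lower, where 1.57% of all genes did. In DIO-CCR against CON-LFD tumors 2 passed (4.88%), both lower, against 0.415%. Against DIO-HFD tumors, 1 gene was lower in DIO-ICR tumors (2.44% against 0.461%) and 1 was higher in DIO-VSG tumors (2.44% against 0.154%). No gene of the 41 passed by limma in the other comparisons. These were CON-LFD with DIO-HFD (0.995% of all genes), DIO-CCR with DIO-HFD (0.354%), DIO-VSG with CON-LFD (0.0256%), DIO-CCR with DIO-VSG (0.0513%), DIO-ICR with DIO-VSG (0.0308%) and DIO-CCR with DIO-ICR (0%). Unadjusted p-values under 0.05 were found for 10, 6, 3, 5, 8 and 2 of the 41 in those same 6 comparisons, or 24.4%, 14.6%, 7.32%, 12.2%, 19.5% and 4.88%. Over all genes these shares were 12.2%, 12.1%, 9.42%, 9.35%, 8.37% and 4.76%, so those of DIO-VSG with CON-LFD, DIO-CCR with DIO-HFD, DIO-CCR with DIO-VSG and DIO-CCR with DIO-ICR lay near or below the background. The counts over all genes depended on single tumors, and without CON-LFD 3 they fell from 307 to 59 in DIO-ICR and from 81 to 0 in DIO-CCR against CON-LFD. Comparisons with the same control share its 6 tumors, so their calls are not independent of each other.

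**Figure D1:**
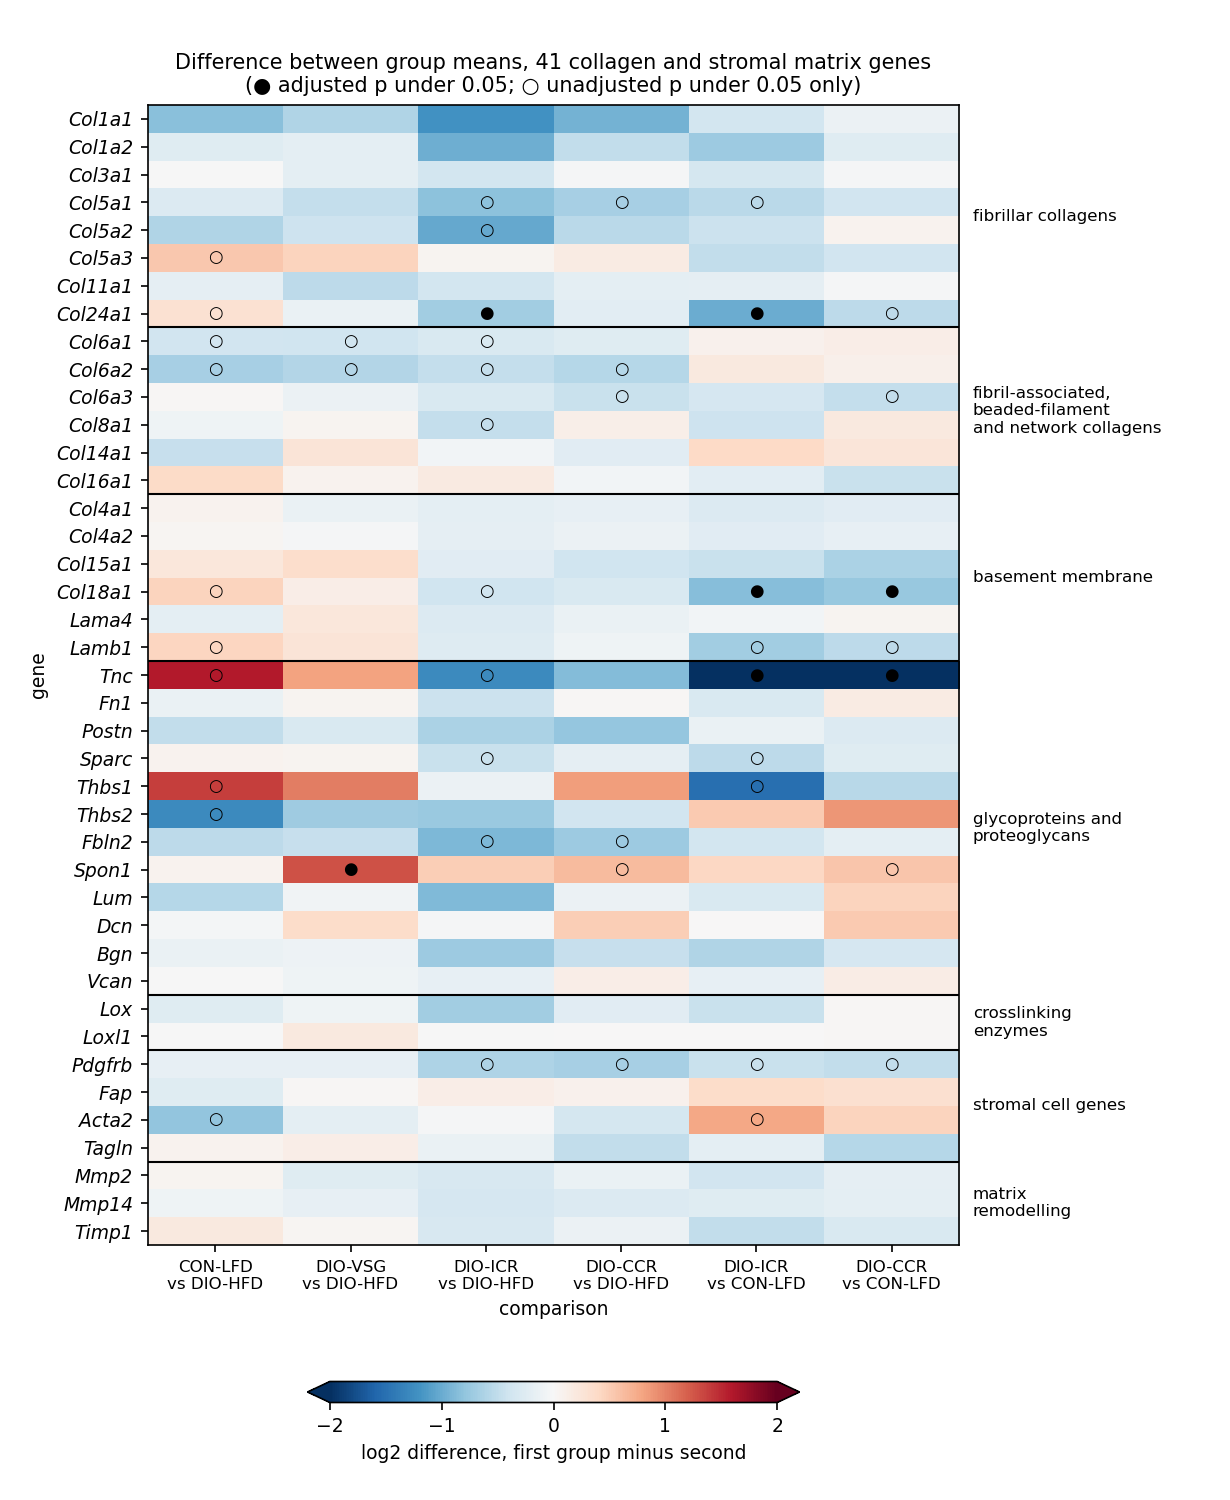
Colour gives the log2 difference between group means, first group minus second, for the 41 genes (vertical axis, by class) in 6 of the 10 comparisons (horizontal axis), with colour saturating at −2 and 2. Filled circles mark an adjusted p under 0.05 and open circles an unadjusted p under 0.05 only. The 7 filled circles fall on Tnc, Col24a1, Col18a1 and Spon1.

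In sign, more of the genes were lower than higher in calorie-restricted tumors. In DIO-ICR against DIO-HFD tumors 37 of 41 differences were below 0 (90.2%), with a median of −0.33, where 55.6% of all genes were below 0 and their median was −0.03. In DIO-CCR against DIO-HFD tumors 32 of 41 were below 0 (78%), median −0.21, against 53.5% and −0.02 for all genes. For CON-LFD and DIO-VSG against DIO-HFD tumors the medians were −0.08 and −0.09, against −0.04 and −0.05 for all genes. Shares below 0 there were 61% and 56.1%, against 57% and 59.7% of all genes, near the background. Against CON-LFD tumors, 78% of the 41 were below 0 in DIO-ICR and 61% in DIO-CCR tumors, against 47.5% and 47.2% of all genes. These genes vary together between tumors, as shown further on, so such counts describe the group means and carry no test.

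Among the fibrillar collagens, Col24a1 was the 1 gene of 8 that passed. It encodes type XXIV collagen, a minor fibrillar chain known from developing bone and cornea, and lies on chromosome 3. Its levels (lowest, median and highest of 6 tumors) were 5.55, 5.67 and 5.75 in CON-LFD, 4.69, 5.40 and 5.70 in DIO-HFD, 5.0, 5.28 and 5.35 in DIO-VSG, 4.11, 4.73 and 5.12 in DIO-ICR and 4.85, 5.15 and 5.37 in DIO-CCR. Every one of these levels lay below the lowest array median, 6.41, so Col24a1 was dim in all tumors. All CON-LFD tumors lay above every DIO-VSG, DIO-ICR and DIO-CCR tumor, while the DIO-HFD tumors overlapped with all groups. Col24a1 fell by 1.00 ± 0.15 in DIO-ICR against CON-LFD tumors, a factor of 2 (limma, adjusted p = 0.00234), and was −0.69 ± 0.15 in DIO-ICR against DIO-HFD tumors (adjusted p = 0.0287). The second call was lost on leaving out any 1 of DIO-HFD 1 to 5 or of DIO-ICR 1, 2, 5 and 6, with adjusted p up to 0.0683. Against CON-LFD tumors Col24a1 was also −0.44 ± 0.15 in DIO-VSG and −0.52 ± 0.15 in DIO-CCR tumors, which did not pass (adjusted p = 0.349 and 0.124).

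The chains of the abundant fibril types I, III and V did not pass in any comparison. Col1a1 and Col1a2, the chains of type I collagen, spread widely within groups. In DIO-HFD tumors Col1a1 ran from 9.80 over a median of 11.50 to 13.40, in DIO-ICR tumors from 9.40 over 10.37 to 12.44, and in CON-LFD tumors from 10.20 over 10.95 to 11.60. The Col1a1 difference between DIO-ICR and DIO-HFD tumors, −1.21 ± 0.59, had a 95% interval from −2.42 to 0.01 and an adjusted p of 0.471. For Col1a2 the interval ran from −2.51 to 0.57. Col3a1, the chain of type III collagen, differed less between tumors, with group medians from 14.80 to 15.38.

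Type V collagen chains help start and set the width of type I fibrils. Col5a1 had levels of 8.74, 9.43 and 9.91 in DIO-HFD, 7.87, 8.41 and 9.94 in DIO-ICR, 8.18, 8.73 and 9.29 in DIO-CCR, 8.76, 8.95 and 9.18 in DIO-VSG and 8.34, 9.32 and 9.56 in CON-LFD tumors (lowest, median and highest). For Col5a1, 5 of the DIO-ICR tumors lay below the DIO-HFD median and the highest DIO-ICR tumor lay above every DIO-HFD tumor. The difference of −0.82 ± 0.26 between DIO-ICR and DIO-HFD tumors did not pass (adjusted p = 0.191), and without the high tumor, DIO-ICR 5, it passed. Col5a2 and Col5a3 did not pass either, with Col5a2 at −1.03 ± 0.49 in the same comparison (adjusted p = 0.45). Col11a1, a chain of cartilage-type fibrils, had group medians from 2.91 to 3.30, near the bottom of the scale. Over the 8 fibrillar collagens the median difference was −0.76 in DIO-ICR and −0.36 in DIO-CCR tumors against DIO-HFD, beside −0.03 and −0.02 over all genes.

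Of 6 fibril-associated, beaded-filament and network collagens 0 passed in any comparison. Col6a2, a chain of the type VI collagen filaments that adipose stroma is rich in, had levels of 13.61, 13.86 and 14.29 in DIO-HFD tumors and 12.50, 13.22 and 14.02 in CON-LFD tumors. It was at 12.95, 13.29 and 13.78 in DIO-VSG, 12.95, 13.46 and 13.91 in DIO-ICR and 13.03, 13.45 and 13.58 in DIO-CCR tumors. DIO-HFD medians were the highest of the 5 groups, and the DIO-CCR range lay wholly below the DIO-HFD range. Col6a2 differences from DIO-HFD were −0.67 ± 0.21 in CON-LFD, −0.59 ± 0.21 in DIO-VSG, −0.57 ± 0.21 in DIO-CCR and −0.48 ± 0.21 in DIO-ICR tumors, with adjusted p of 0.12, 0.295, 0.233 and 0.376.

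Its partner chain Col6a1 had differences from DIO-HFD of −0.39 in CON-LFD, −0.40 in DIO-VSG, −0.25 in DIO-CCR and −0.31 in DIO-ICR tumors, each ± 0.14 and none past the threshold. Without CON-LFD 5, a tumor with muscle genes and the highest Col6a1 and Col6a2 of its group, both chains passed as lower in CON-LFD than in DIO-HFD tumors. With every tumor with muscle genes left out, CON-LFD 5 among them, neither chain passed there. Col6a3, the longest chain, had levels of 14.11, 14.41 and 14.63 in DIO-HFD and 13.26, 14.08 and 14.13 in DIO-CCR tumors. For CON-LFD, DIO-VSG and DIO-ICR tumors its medians were 14.46, 14.30 and 14.04, with ranges from 13.80 to 14.88, 13.90 to 14.62 and 13.62 to 14.57. All groups overlapped for Col6a3, and DIO-CCR against DIO-HFD was −0.44 ± 0.18 (adjusted p = 0.283). Col8a1, a network-forming chain of vessel walls, and the fibril-associated Col14a1 and Col16a1 did not pass. Their group medians were 3.23 to 3.71, 5.50 to 6.00 and 9.68 to 10.15.

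Of the 6 basement membrane genes, Col18a1 passed. Type XVIII collagen is a heparan sulfate proteoglycan of vascular and epithelial basement membranes whose C-terminal fragment is endostatin, and the gene lies on chromosome 10. Its levels were 14.12, 14.59 and 14.72 in CON-LFD, 13.55, 14.18 and 14.39 in DIO-HFD, 13.47, 14.27 and 14.62 in DIO-VSG, 13.44, 13.68 and 13.84 in DIO-ICR and 13.52, 13.65 and 14.08 in DIO-CCR tumors. All 12 tumors of calorie-restricted mice lay below all CON-LFD tumors, while the other groups overlapped with them. Col18a1 fell by 0.85 ± 0.16 in DIO-ICR (adjusted p = 0.00806, 1.8-fold lower) and by 0.76 ± 0.16 in DIO-CCR against CON-LFD tumors (adjusted p = 0.0236, 1.69-fold lower). Without the tumors with muscle genes the DIO-CCR difference was −0.70 (adjusted p = 0.124), and leaving out any 1 of CON-LFD 2, 3 and 5 or of DIO-CCR 3 to 6 also lost that call, with adjusted p up to 0.0782. Against DIO-HFD tumors it was −0.40 ± 0.16 in DIO-ICR and −0.31 ± 0.16 in DIO-CCR tumors, with adjusted p of 0.329 and 0.441.

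Lamb1, a laminin beta chain, had levels of 11.93, 12.22 and 12.93 in CON-LFD, 11.41, 11.95 and 12.30 in DIO-HFD, 11.91, 12.18 and 12.31 in DIO-VSG, 11.03, 11.63 and 12.01 in DIO-ICR and 11.10, 11.84 and 12.18 in DIO-CCR tumors. DIO-ICR tumors were lowest in median but overlapped with CON-LFD tumors, and the difference of −0.69 ± 0.19 had an adjusted p of 0.0639. Col4a1 and Col4a2, the main type IV chains, had medians within 11.80 to 12.11 and 9.97 to 10.31 in the 5 groups. Neither they nor Col15a1 or Lama4, a multiplexin and a laminin alpha chain of vessels, passed. In DIO-ICR and in DIO-CCR against DIO-HFD tumors all 6 basement membrane genes were below 0 in sign, with medians of −0.24 and −0.15.

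Of 12 glycoproteins and proteoglycans, Tnc and Spon1 passed. Tnc encodes tenascin C, a large glycoprotein that is sparse in most adult tissue and is deposited in wounds and tumor stroma, and it lies on chromosome 4. Its levels were 12.20, 12.85 and 14.76 in CON-LFD, 10.32, 11.49 and 12.62 in DIO-HFD, 11.24, 12.25 and 13.23 in DIO-VSG, 9.05, 10.07 and 11.70 in DIO-ICR and 9.92, 10.44 and 11.62 in DIO-CCR tumors. No tumor of a calorie-restricted mouse reached the lowest CON-LFD tumor, DIO-VSG tumors overlapped with CON-LFD, and DIO-HFD tumors lay between and overlapped with all. Tnc fell by 2.86 ± 0.47 in DIO-ICR against CON-LFD tumors, 7.28-fold lower (adjusted p = 0.00251), and by 2.46 ± 0.47 in DIO-CCR tumors, 5.49-fold lower (adjusted p = 0.0183). CON-LFD 3 had the highest level of all, and without it the DIO-CCR difference was −2.11 with an adjusted p of 0.0538. Without the tumors with muscle genes it was −2.32 (adjusted p = 0.0687).

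Against obese controls Tnc did not pass in any direction. It was 1.59 ± 0.47 in CON-LFD (adjusted p = 0.0974), 0.81 ± 0.47 in DIO-VSG (0.569), −0.87 ± 0.47 in DIO-CCR (0.473) and −1.27 ± 0.47 in DIO-ICR tumors (0.277) relative to DIO-HFD. Tumors after surgery and after restriction differed by −2.08 ± 0.47 (DIO-ICR minus DIO-VSG) and −1.67 ± 0.47 (DIO-CCR minus DIO-VSG), with adjusted p of 0.162 and 0.199.

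Spon1 encodes F-spondin, a secreted adhesion protein first described in the floor plate of the neural tube, and lies on chromosome 7. Its levels were 7.16, 8.23 and 8.69 in DIO-VSG, 6.53, 6.70 and 7.26 in DIO-HFD, 6.61, 6.88 and 7.27 in CON-LFD, 6.46, 7.31 and 7.79 in DIO-ICR and 6.83, 7.21 and 8.49 in DIO-CCR tumors. Both control groups lay wholly below 5 of the DIO-VSG tumors, and DIO-VSG 2 at 7.16 lay within both of their ranges. Spon1 rose by 1.27 ± 0.26 in DIO-VSG against DIO-HFD tumors, 2.42-fold (adjusted p = 0.0349). Without the 3 tumors with lymph node genes the difference was 1.00 (adjusted p = 0.395), without those with muscle genes 1.20 (0.144), and the call was lost on leaving out any 1 of DIO-HFD 1, 3, 4, 5 and 6 or of DIO-VSG 1, 3, 4 and 5, with adjusted p up to 0.0953. DIO-VSG against CON-LFD was 1.20 ± 0.26, which did not pass (adjusted p = 0.152) unless DIO-VSG 2 was left out.

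**Figure D2:**
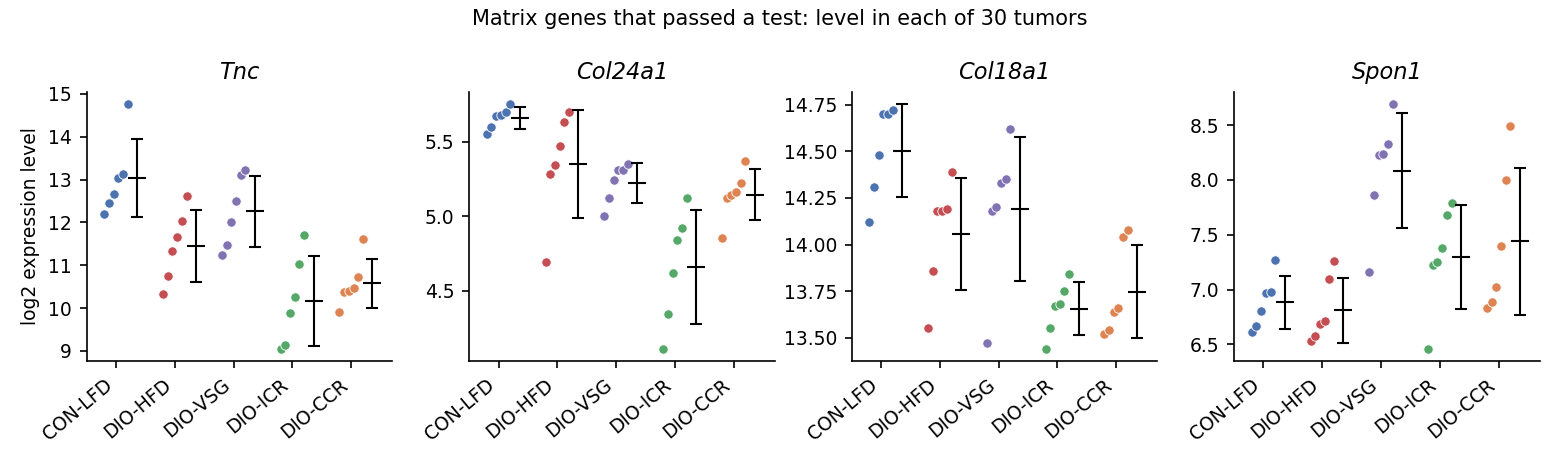
Log2 expression level (vertical axis) of Tnc, Col24a1, Col18a1 and Spon1 in each of the 30 tumors by group (horizontal axis), 1 point per tumor, with the group mean and SD as black bars (n = 6). DIO-ICR and DIO-CCR points lie below all CON-LFD points for Tnc, Col24a1 and Col18a1, and 5 of 6 DIO-VSG points of Spon1 lie above all DIO-HFD points.

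The other 10 glycoproteins and proteoglycans did not pass. Thbs1 and Thbs2, the thrombospondins, which bind matrix and cell receptors and restrain vessel growth, had CON-LFD minus DIO-HFD differences of opposite sign, 1.39 ± 0.65 (adjusted p = 0.377) and −1.27 ± 0.43 (0.168). Thbs2 ran from 9.44 to 10.06 in CON-LFD and from 9.47 to 12.12 in DIO-HFD tumors. Sparc, a collagen-binding protein of bone and tumor stroma, was −0.52 ± 0.16 in DIO-ICR against CON-LFD tumors (adjusted p = 0.105), and Fbln2, a fibulin of elastic and basement membrane matrix, −0.90 ± 0.29 in DIO-ICR against DIO-HFD tumors (0.208). For fibronectin (Fn1), periostin (Postn), lumican (Lum), decorin (Dcn), biglycan (Bgn) and versican (Vcan) the smallest unadjusted p of any comparison ran from 0.0871 for Postn to 0.387 for Dcn.

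The crosslinking enzymes showed no difference beyond their spread. Lox, lysyl oxidase, which starts the crosslinking of collagen and elastin, had levels of 8.50, 9.60 and 10.97 in CON-LFD, 8.42, 9.21 and 13.34 in DIO-HFD, 7.46, 9.16 and 12.89 in DIO-VSG, 7.86, 9.27 and 10.42 in DIO-ICR and 8.05, 8.84 and 12.45 in DIO-CCR tumors. Single tumors were high in several groups. In CON-LFD 3, DIO-HFD 2 and DIO-VSG 4 the highest Lox of the group came with its highest Col1a1 and Col1a2. In the other groups it did not, with Lox highest in DIO-CCR 3 and DIO-ICR 1 and both type I chains highest in DIO-CCR 1 and DIO-ICR 5. The DIO-ICR minus DIO-HFD interval for Lox ran from −2.48 to 1.09. Loxl1, a related enzyme of elastic fibres, had levels of 6.19, 7.07 and 7.55 in CON-LFD, 6.09, 7.0 and 7.96 in DIO-HFD, 6.23, 6.91 and 8.48 in DIO-VSG, 6.07, 6.84 and 7.80 in DIO-ICR and 6.07, 6.80 and 7.99 in DIO-CCR tumors. All groups overlapped, and the interval of that difference was −0.84 to 0.82.

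Of the 4 stromal cell genes 0 passed. Pdgfrb, the platelet-derived growth factor receptor beta of pericytes and fibroblasts, came closest, with an F-test adjusted p of 0.0575. Its levels were 12.67, 12.73 and 13.05 in DIO-HFD, 12.13, 12.64 and 13 in CON-LFD, 12.19, 12.64 and 12.86 in DIO-VSG, 11.68, 12.12 and 12.98 in DIO-ICR and 11.68, 12.21 and 12.31 in DIO-CCR tumors. Every DIO-CCR tumor lay below every DIO-HFD tumor, and 5 of 6 DIO-ICR tumors did. The differences from DIO-HFD were −0.67 ± 0.17 in DIO-CCR (adjusted p = 0.0805) and −0.62 ± 0.17 in DIO-ICR tumors (0.107). Without DIO-ICR 5, the F-test adjusted p of Pdgfrb was 0.0103, and it passed as lower in both restricted groups against DIO-HFD and in DIO-ICR against CON-LFD tumors. Its F-test also passed without CON-LFD 1 or DIO-VSG 1, without the dimmest 30% of genes, with trend and robust moderation and with array weights.

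Acta2, smooth muscle actin of pericytes, vessel walls and activated fibroblasts, had levels of 11.81, 12.04 and 12.78 in CON-LFD, 11.98, 12.96 and 13.66 in DIO-HFD, 12.14, 12.63 and 13.61 in DIO-VSG, 12.34, 12.63 and 13.90 in DIO-ICR and 11.94, 12.44 and 13.17 in DIO-CCR tumors. CON-LFD tumors had the lowest median and overlapped with every group, and CON-LFD minus DIO-HFD was −0.79 ± 0.29 (adjusted p = 0.221). Fap, a protease of activated fibroblasts, and Tagln, an actin-binding protein of contractile cells, had group medians of 6.81 to 7.12 and 5.83 to 6.40. Neither passed.

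Among the 3 remodelling genes 0 passed. Mmp14, a membrane-bound protease that cuts fibrillar collagen, had levels of 14.36, 15.12 and 15.42 in CON-LFD, 14.82, 15.18 and 15.28 in DIO-HFD, 14.80, 14.89 and 15.28 in DIO-VSG, 14.58, 14.79 and 14.97 in DIO-ICR and 13.97, 14.91 and 15.33 in DIO-CCR tumors. Timp1, an inhibitor of such proteases, had levels of 9.61, 10.50 and 11.64 in CON-LFD, 9.73, 10.20 and 11.92 in DIO-HFD, 10.02, 10.46 and 11.24 in DIO-VSG, 9.76, 10.08 and 10.65 in DIO-ICR and 9.83, 10.26 and 10.91 in DIO-CCR tumors. Groups overlapped for both genes, with DIO-ICR minus DIO-HFD at −0.33 ± 0.17 for Mmp14 and −0.32 ± 0.32 for Timp1. Mmp2, a gelatinase that Mmp14 activates, had group medians of 12.70 to 13.32.

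Tumors of 1 group differed from each other across many of the 41 genes at once. Averaged over all 41 and set against the median tumor, levels ran from −0.24 to 0.54 in CON-LFD, −0.31 to 0.81 in DIO-HFD, −0.27 to 0.79 in DIO-VSG, −0.52 to 0.30 in DIO-ICR and −0.43 to 0.63 in DIO-CCR tumors, so every group overlapped with every other. The medians of the groups were 0.13, 0.13, 0.11, −0.34 and −0.19 in that order. In each group a single tumor held the highest level for a large share of the genes, 20 of 41 for DIO-HFD 2 and for DIO-ICR 5, 19 for DIO-CCR 1 and for CON-LFD 3, and 14 for DIO-VSG 4. DIO-HFD 1, CON-LFD 6 and DIO-CCR 6 were lowest of their groups for 20, 17 and 15 genes.

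**Figure D3:**
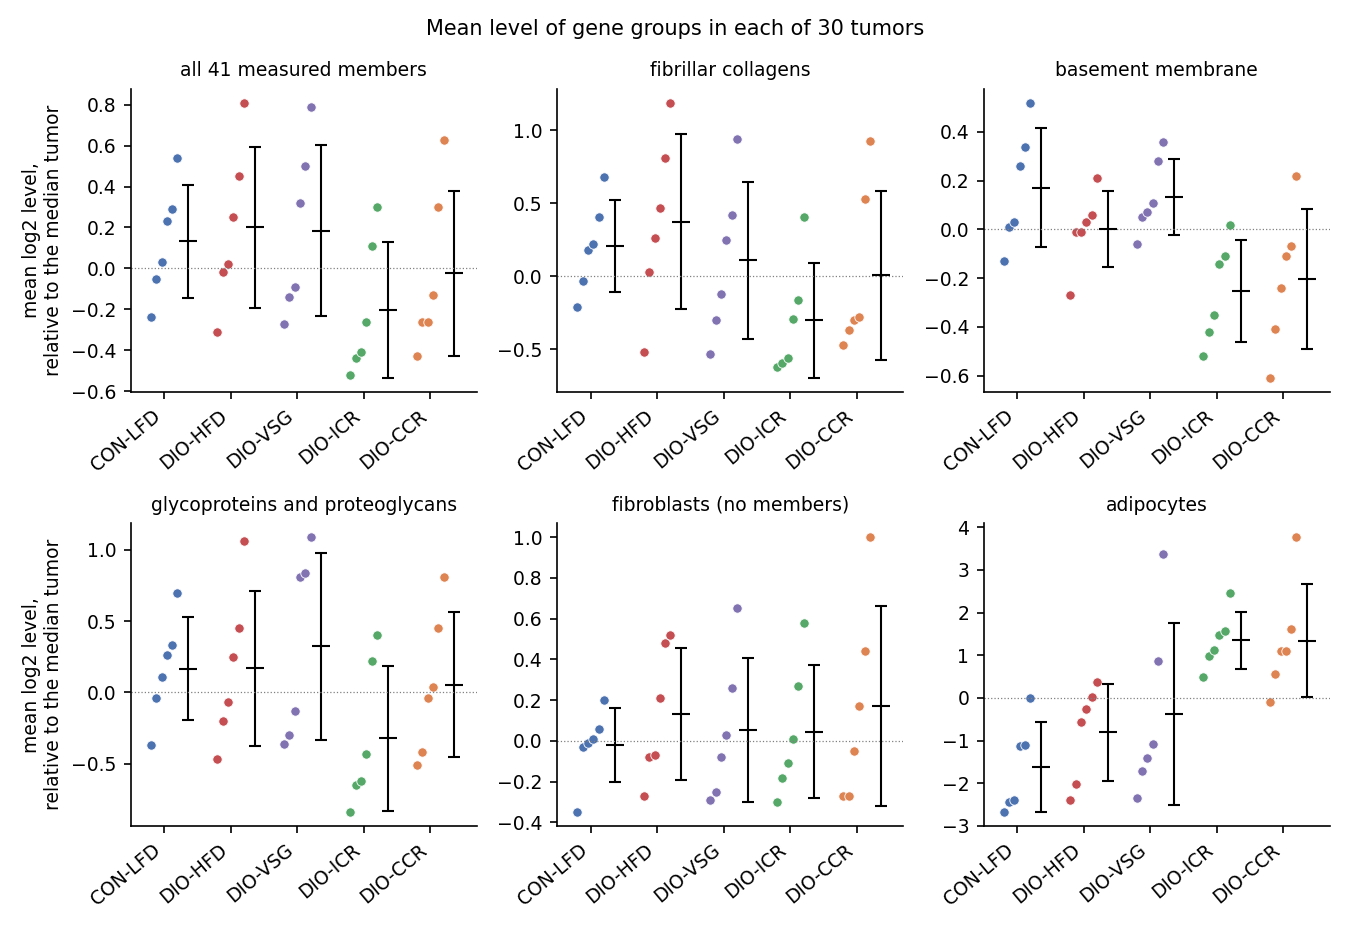
Mean log2 level of a gene group relative to the median tumor (vertical axis) in each tumor by diet group (horizontal axis), 1 point per tumor with group mean and SD as black bars (n = 6). The diet groups overlap for all 41 genes together, while adipocyte markers lie higher in every DIO-ICR tumor than in any CON-LFD tumor.

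The chains of 1 collagen molecule moved together between tumors. Chains of different collagens were not paired, so whether such links are particular to partner chains was not tested. Deviations from the group mean were correlated over the 30 tumors for 6 pairs chosen by protein assembly, with permutation within groups (100000 resamples, two-sided) and Benjamini-Hochberg adjustment over the 6. For Col1a1 and Col1a2 Pearson's r was 0.91 and Spearman's rho 0.90 (permutation p = 1e-05 each, the smallest the resampling can give, adjusted 3e-05). The correlation was 0.88 without the 2 tumors farthest from the median and 0.84 to 0.99 within single groups. For Col6a1 and Col6a2 r was 0.90 and rho 0.89 (permutation p = 1e-05 each, adjusted 3e-05), 0.86 without the 2 farthest tumors and 0.67 to 0.99 within groups. Col6a1 and Col6a3 gave r = 0.71 and rho = 0.66 (permutation p = 8e-05 and 0.00041, adjusted 0.00016 and 0.00082), 0.59 without 2 tumors and 0.56 to 0.90 within groups.

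The chains of types V and IV were less closely linked. For Col5a1 and Col5a2 r was 0.50 and rho 0.48 (permutation p = 0.00225 and 0.00746, adjusted 0.00337 and 0.00895), 0.59 without 2 tumors, with values from −0.08 to 0.94 within groups. For Col4a1 and Col4a2, which lie head to head on chromosome 8, r was 0.47 and rho 0.56 (permutation p = 0.0185 and 0.00425, adjusted 0.0222 and 0.00637), 0.52 without 2 tumors and 0.17 to 0.64 within groups. Acta2 and Tagln gave r = 0.43 and rho = 0.41 (permutation p = 0.039 and 0.042), but 0.23 without the 2 farthest tumors (permutation p = 0.383), so it did not hold without them. It was also lost on leaving out any 1 of 12 tumors, these 2 among them, and under every alternative processing tried. All arrays share 1 normalization, and the labels give no batch by which to split them.

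**Figure D4:**
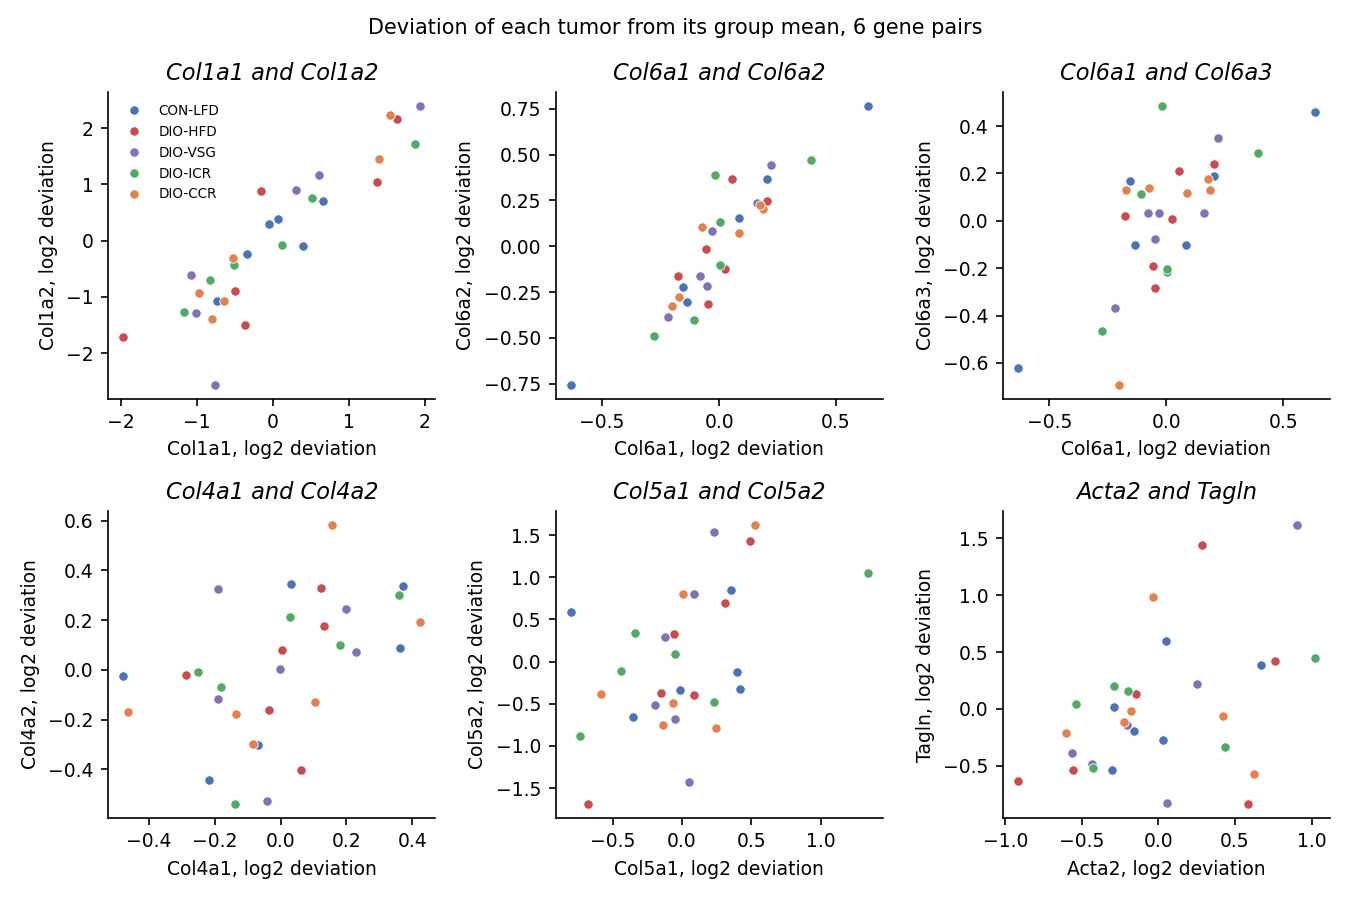
Each point is 1 of 30 tumors, placed by its log2 deviation from its group mean for the first gene (horizontal axis) and the second gene (vertical axis) of a pair, coloured by group. Points fall along a line for Col1a1 with Col1a2 (r = 0.91) and Col6a1 with Col6a2 (r = 0.90) and scatter widely for Acta2 with Tagln (r = 0.43).

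The machinery around the matrix genes was read from 4 further lists. Of 16 measured collagen biosynthesis genes, which hydroxylate, fold and trim the chains, 0 passed in any comparison or in the F-test. P3h1, a prolyl 3-hydroxylase, was −0.72 ± 0.19 in DIO-CCR (adjusted p = 0.0754) and −0.67 ± 0.19 in DIO-ICR against CON-LFD tumors (0.0613). P4hb, the protein disulfide isomerase subunit of prolyl 4-hydroxylase, was −0.34 ± 0.10 in DIO-VSG against CON-LFD tumors (adjusted p = 0.248). Of 18 TGF-beta pathway genes, whose ligands drive collagen transcription in fibroblasts, 1 passed in DIO-CCR against CON-LFD tumors (5.56% against 0.415% of all genes) and 0 in the other comparisons. That gene was Ltbp2, which encodes a protein of microfibrils. Its levels were 5.38, 5.69 and 6.51 in CON-LFD, 4.43, 4.88 and 6.10 in DIO-HFD, 5.21, 5.68 and 6.31 in DIO-VSG, 4.52, 4.99 and 5.78 in DIO-ICR and 3.63, 4.64 and 4.99 in DIO-CCR tumors. DIO-CCR tumors all lay below all CON-LFD and DIO-VSG tumors, and Ltbp2 fell by 1.27 ± 0.28 against CON-LFD (adjusted p = 0.0345). Without CON-LFD 3 no gene of the array passed in that comparison, so the Ltbp2 call was lost.

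Of 12 collagen receptors and adhesion genes, Itgb3 and Ddr1 passed, both also in the F-test (16.7% against 1.64% of all genes). Itgb3, the integrin beta 3 chain that binds vitronectin and fibronectin, had levels of 11.70, 12.25 and 12.58 in CON-LFD, 10.72, 11.10 and 11.60 in DIO-HFD, 10.55, 11.83 and 12.17 in DIO-VSG, 10.12, 10.66 and 11.77 in DIO-ICR and 10.23, 11.15 and 11.49 in DIO-CCR tumors. CON-LFD tumors lay above all DIO-HFD and DIO-CCR tumors and overlapped with the other groups. Itgb3 was 1.07 ± 0.26 higher in CON-LFD than in DIO-HFD tumors (adjusted p = 0.0397), and fell by 1.42 ± 0.26 in DIO-ICR (0.00678) and by 1.14 ± 0.26 in DIO-CCR tumors (0.0437) against CON-LFD. The DIO-CCR call of Itgb3 was lost without CON-LFD 3, as was every other call of that comparison. Ddr1, an epithelial collagen receptor kinase, had levels of 6.06, 6.54 and 7.59 in DIO-HFD, 4.42, 5.34 and 6.00 in DIO-CCR, 4.35, 5.42 and 6.16 in CON-LFD, 5.42, 6.24 and 6.86 in DIO-VSG and 5.24, 5.68 and 6.84 in DIO-ICR tumors. No DIO-CCR tumor reached a DIO-HFD tumor, and the difference was −1.44 ± 0.33 (adjusted p = 0.047). The F-test of Ddr1 had an adjusted p of 0.0484. Without DIO-CCR 5 the calls over all genes in that comparison fell from 69 to 5, and whether Ddr1 stayed among them is not reported here.

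Of 18 other matrix proteases and inhibitors, Plat and Mmp3 passed in a comparison. Both did so in DIO-ICR against CON-LFD tumors (11.1% against 1.57% of all genes). In the F-test Plat alone passed (5.56% against 1.64%). Plat, tissue plasminogen activator, had levels of 11.93, 12.13 and 12.80 in CON-LFD, 10.89, 11.81 and 12.79 in DIO-HFD, 11.41, 12.25 and 12.65 in DIO-VSG, 10.38, 10.71 and 11.52 in DIO-ICR and 10.43, 10.91 and 11.20 in DIO-CCR tumors. Calorie-restricted tumors lay below all CON-LFD tumors, and DIO-CCR tumors below all DIO-VSG tumors. Plat fell by 1.48 ± 0.25 in DIO-ICR and by 1.35 ± 0.25 in DIO-CCR against CON-LFD tumors (adjusted p = 0.00367 and 0.0183), and by 1.45 ± 0.25 and 1.32 ± 0.25 against DIO-VSG tumors (0.0298 and 0.0314). The DIO-CCR call against CON-LFD was lost without CON-LFD 3, and both calls against DIO-VSG were lost without DIO-VSG 2. With those tumors left out, no gene of the array passed in those comparisons. Mmp3, stromelysin 1, which cuts proteoglycans and activates other proteases, had levels of 11.27, 13.07 and 13.62 in CON-LFD, 10.30, 11.23 and 12.77 in DIO-HFD, 9.79, 11.85 and 13.30 in DIO-VSG, 9.23, 10.79 and 12.69 in DIO-ICR and 10.81, 12.05 and 12.39 in DIO-CCR tumors. The groups overlapped, and Mmp3 fell by 2.10 ± 0.55 in DIO-ICR against CON-LFD tumors (adjusted p = 0.0479). It did not pass in the F-test (adjusted p = 0.17). Without CON-LFD 3 the calls over all genes in that comparison fell from 307 to 59, and whether Mmp3 stayed among them is not reported here.

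**Figure D5:**
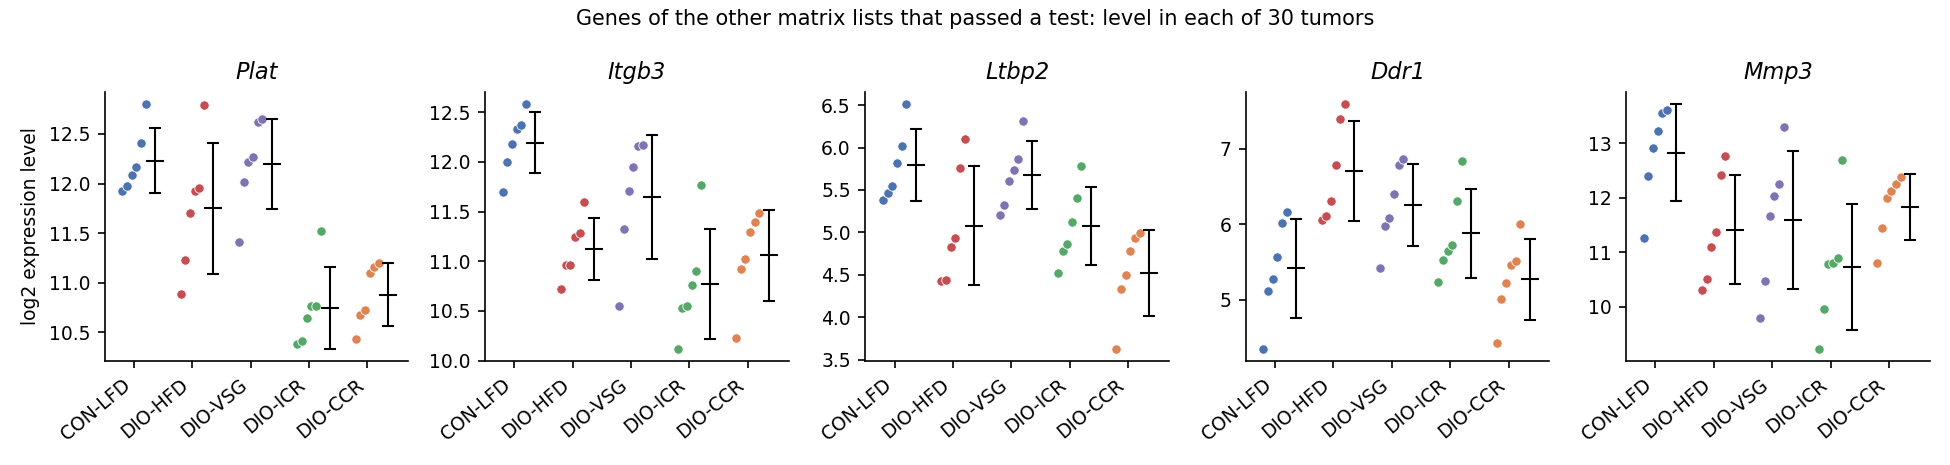
Log2 expression level (vertical axis) of the 5 genes of the other matrix lists that passed a comparison, Plat, Itgb3, Ltbp2, Ddr1 and Mmp3, in each of the 30 tumors by group (horizontal axis), 1 point per tumor with group mean and SD as black bars (n = 6). DIO-ICR and DIO-CCR points of Plat lie below all CON-LFD points.

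Markers of other cells moved with some of the same groups. The mean level of 9 measured adipocyte genes, relative to the median tumor, ran from −2.68 to −0.01 in CON-LFD, −2.40 to 0.37 in DIO-HFD, −2.34 to 3.38 in DIO-VSG, 0.49 to 2.46 in DIO-ICR and −0.10 to 3.77 in DIO-CCR tumors. Against CON-LFD tumors 3 of the 9 rose in DIO-ICR (33.3% against 1.57% of all genes) and 2 in DIO-CCR tumors (22.2% against 0.415%). Against DIO-HFD tumors 2 rose in DIO-ICR (22.2% against 0.461%) and 1 in DIO-CCR tumors (11.1% against 0.354%). The 8 macrophage genes ran from −1.11 to −0.08 in CON-LFD, −0.28 to 0.58 in DIO-HFD, −0.21 to 0.22 in DIO-VSG, −0.04 to 0.78 in DIO-ICR and −0.43 to 0.49 in DIO-CCR tumors. Against CON-LFD tumors 5 of them rose in DIO-ICR (62.5% against 1.57% of all genes) and 1 in DIO-CCR tumors (12.5% against 0.415%). Of 8 epithelial genes, Krt8 alone passed (12.5% against 0.995% of all genes), lower in CON-LFD than in DIO-HFD tumors (−2.37 ± 0.56, adjusted p = 0.0296). The other 7 were above 0 in sign in that comparison and the median of the 8 was 0.41. The part of these cells in the Tnc, Col24a1 and Col18a1 differences was not tested.

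The mean level of fibroblast markers outside the 41 genes did not separate the groups, but single markers moved in opposite directions. The mean of 11 such genes ran from −0.35 to 0.20 in CON-LFD, −0.27 to 0.52 in DIO-HFD, −0.29 to 0.65 in DIO-VSG, −0.30 to 0.58 in DIO-ICR and −0.27 to 1.00 in DIO-CCR tumors. Of the 11, Serpinf1, which encodes pigment epithelium-derived factor, passed (9.09% against 1.57% of all genes), at −1.25 ± 0.27 in DIO-ICR against CON-LFD tumors (adjusted p = 0.0177). In that comparison 2 of the 11 were higher and 2 lower at an unadjusted p under 0.05, with differences over the 11 from −1.25 to 0.85. An unadjusted F-test p under 0.05 was found for 4 of the 11, beside 2975 of all 19505 genes. None of 10 smooth muscle and pericyte genes passed in any comparison by limma, with 2 at an unadjusted F-test p under 0.05, and their mean level ran from −0.42 to 0.55 over the 30 tumors. None of 8 endothelial genes passed either, but 6 had an unadjusted F-test p under 0.05, beside 2975 of all 19505 genes. The endothelial level had a median of 0.31 in DIO-VSG, 0.05 in DIO-HFD, −0.09 in CON-LFD, −0.11 in DIO-CCR and −0.37 in DIO-ICR tumors. All 8 endothelial genes were below 0 in sign in DIO-ICR and in DIO-CCR against DIO-VSG tumors, with medians of −0.56 and −0.69 and an unadjusted p under 0.05 for 5 of 8 in each. Over all genes 45.8% and 45.4% were below 0, and 8.37% and 9.35% had an unadjusted p under 0.05. DIO-VSG 1 and DIO-VSG 5, which had lymph node genes, had the highest endothelial levels of their group, 0.80 and 0.50. Against CON-LFD tumors, where Col18a1 fell in both restricted groups, the endothelial medians were −0.15 in DIO-ICR and −0.17 in DIO-CCR tumors. The part of endothelium in the levels of Col18a1 and the other basement membrane genes was not tested.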

How the data were processed

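Total RNA of 30 tumors was hybridized by the authors to Mouse Clariom S arrays, 1 per tumor. The log2 expression levels were used as deposited. The authors had obtained them by SST-RMA, which transforms probe signals, normalizes between arrays and summarizes probes. The sizes of differences depend on these steps. Of 22206 probe sets, 19572 had 1 gene symbol, and where 55 symbols had several the brightest was kept, giving 19505 genes. Precision rests on 6 tumors per group, since an array has no depth to count, and the standard error of a difference had a median of 0.18. No source used here names the build of the array design.

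A mean per group was fitted with limma 3.58.1 in R 4.3.3 over 30 arrays (25 residual and 3.43 prior degrees of freedom). All 10 pairs of groups and an F-test were read, with Benjamini-Hochberg adjustment over all 19505 genes. These p-values set differences of group means against the spread between tumors within groups, estimated over all 5 groups. Any of the 41 genes could be named. Values by group were given for those that passed and, in classes where fewer than 2 passed, also for the 2 with the smallest F-test p, while values of a few others were chosen after they were seen. In the further matrix lists, genes that passed were named, and otherwise the 2 with the smallest p. The members, lists and tests were chosen with earlier results of these data known. The fit was tested on simulated data. Correlations and motif searches used Python 3.11.15 with SciPy 1.17.1. Alternatives were normalization by quantiles, centring on array medians, omission of the dimmest 30% of genes, other handling of probe sets, trend and robust moderation, array weights, fits of 2 groups only, and omission of single arrays or of tumors whose lymph node or muscle genes lay more than 1 above the median tumor.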

Additional observations from a re-analysis of the deposited data

Results flagged for a closer look

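In 105 sets of 6 tumors (a gene with values above, or the mean of a gene class, in 1 diet group), 4 held a tumor farther from the rest than Dixon's critical ratio of 0.625 allows, where chance alone marks about 1 in 20 sets. Col6a3 was 13.26 in DIO-CCR 6, against 14.07 to 14.13 in the other tumors of that group. Tnc was 14.76 in CON-LFD 3, against 12.20 to 13.12, and without this tumor Tnc did not pass in DIO-CCR against CON-LFD tumors. Acta2 was 12.78 in CON-LFD 1, against 11.81 to 12.16. Mmp14 was 15.28 in DIO-VSG 3, against 14.80 to 14.93, and DIO-VSG 3 is among the tumors with skeletal muscle genes.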

How the results depend on the processing

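Col24a1, Col18a1 and Tnc passed in DIO-ICR against CON-LFD tumors under every alternative run and with any array left out. In that comparison 5 genes passed with median centring (Lamb1 and Sparc added) and 5 with array weights (Lamb1 and Pdgfrb added). Array weights and trend and robust moderation each called 1 gene, Pdgfrb, in DIO-CCR against DIO-HFD. DIO-ICR against DIO-HFD gave 2 with array weights, and 0 with trend and robust moderation or with the 2 groups alone. DIO-VSG against DIO-HFD gave 0 without lymph node tumors, without muscle tumors or with the 2 groups alone. DIO-CCR against CON-LFD gave 0 without muscle tumors and 1 with the 2 groups alone, and the F-test gave 2 without muscle tumors. CON-LFD against DIO-HFD stayed at 0 without muscle tumors. Leaving out single arrays gave 0 to 2 genes for CON-LFD against DIO-HFD (Col6a1 and Col6a2, without CON-LFD 5), 0 to 1 for DIO-VSG against DIO-HFD, 0 to 2 for DIO-ICR against DIO-HFD (Col5a1 and Pdgfrb, without DIO-ICR 5), 0 to 1 for DIO-VSG against CON-LFD (Spon1, without DIO-VSG 2), 0 to 2 for DIO-CCR against CON-LFD (0 without CON-LFD 3), 3 to 4 for DIO-ICR against CON-LFD, 0 to 1 for DIO-ICR against DIO-VSG (Tnc, without DIO-ICR 1) and 3 to 6 for the F-test (Col5a1 and Pdgfrb added without DIO-ICR 5, Spon1 lost without DIO-HFD 6 or DIO-VSG 3, 4 or 5). Why these counts moved was not tested.

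The correlation of Acta2 with Tagln was 0.40 after quantile normalization, 0.32 after median centring, 0.28 without lymph node tumors, 0.44 without muscle tumors (adjusted permutation p up to 0.251) and 0.29 to 0.53 on leaving out 1 array. Col4a1 with Col4a2 was 0.42 without muscle tumors (adjusted permutation p = 0.0632) and 0.43 to 0.54 on leaving out 1 array. Pdgfrb was added to the F-test calls without CON-LFD 1 or DIO-VSG 1, without the dimmest genes, with trend and robust moderation and with array weights. Over all genes, single-array omission and the other settings gave 177 to 512 and 203 to 590 F-test calls, against 319. No paired analysis was possible because the labels number each mouse on its own and pair no tumors between groups. No detection call or signal over background was used, so which dim genes, such as Col11a1, Col8a1 and Col24a1, lie above background is unknown.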
